A study of Mus musculus with 49 samples.

Results

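Bcl11b, Fezf2, Crym, Ldb2 and Bcl6 are genes used to recognise layer 5 neurons that project below the cortex, and all 5 were among the 9020 genes listed in the deposited table. They were chosen by name, as the rows with these symbols, and were followed across all 49 cell columns. Each column is 1 cell patched as a FlashTag-labelled neuron in the primary somatosensory cortex of wild-type CD1 mice. Apical progenitors were labelled at E13.5, and the cells were collected with a patch pipette at postnatal day 7. The cells were picked by FlashTag brightness. In a separate experiment of the paper, such bright cells were mostly born directly from apical progenitors. FlashTag is a fluorescent dye that marks progenitors dividing at the ventricle at the time of injection, and Patchseq sequences the RNA aspirated from a single cell. All 49 cells are of 1 condition and the labels tie no cell to an animal, so they are treated as a single sample, without tests or p-values between cells.

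Subcerebral projection neurons are the large layer 5 pyramidal cells whose axons leave the cortex for the brainstem, the superior colliculus and the spinal cord. Fezf2 is a zinc finger transcription factor that directs neurons to this fate and acts upstream of Bcl11b, also called Ctip2, a zinc finger factor needed for the outgrowth of corticospinal axons that is also made by many cortical interneurons. Crym encodes mu-crystallin, a cytosolic thyroid hormone binding protein, Ldb2 encodes an adaptor that joins LIM-domain proteins into transcription complexes, and Bcl6 encodes a transcriptional repressor that promotes neurogenesis by silencing Notch targets.

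In GENCODE M21 on GRCm38, the 5 genes are protein coding and lie on the minus strand, Bcl11b on chromosome 12 (107910403 to 108003602), Fezf2 on chromosome 14 (12342094 to 12348189), Crym on chromosome 7 (120186380 to 120202111), Ldb2 on chromosome 5 (44472132 to 44799680) and Bcl6 on chromosome 16 (23965052 to 23988852). No other annotated gene overlaps Bcl11b, Fezf2 or Crym. Ldb2 is overlapped by 11 other annotated genes, 9 of them on its own strand, and Bcl6 by 1 gene on the opposite strand, and 0 of these 12 are listed in the table. These overlaps are of whole gene spans, and exons were not compared. Whether reads were counted by strand is not given in the sources used here. Whether reads of these neighbours were counted for Ldb2 or Bcl6 was therefore not determined.

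The values are RPM, read numbers scaled to the cell's total, from 3′ ends, not divided by gene length, and 1 read was worth between 0.0283 and 4.77 RPM, depending on the cell. The cells held between 209850 and 35342325 reads (median 1240101) and were sequenced in 5 library pools of 12, 9, 9, 9 and 10 cells. Snap25, Syt1, Stmn2 and Map2, which mark neurons, were at 10 RPM or more in 49 of 49 cells. In 8 cells, hemoglobin genes held at least 1% of the reads. A gene was counted as present in a cell from 10 RPM, and the range in parentheses after a share is its exact 95% interval (Clopper-Pearson). It covers counting error alone and takes the cells as independent draws, while cells share pools and may share animals, so the true uncertainty is larger. The reads carry no molecular identifiers.

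At 10 RPM or more, each of the 5 genes was present in a minority of these neurons, but this depends on the limit: at 1 RPM Bcl11b, Fezf2, Crym and Ldb2 were in 51.0% to 57.1% of the cells, and at 1 read in 67.3%. At 10 RPM, Bcl11b was in 20 of 49 cells (40.8%, 27% to 55.8%), Ldb2 in 17 (34.7%, 21.7% to 49.6%), Fezf2 in 13 (26.5%, 14.9% to 41.1%), Crym in 12 (24.5%, 13.3% to 38.9%) and Bcl6 in 4 (8.16%, 2.27% to 19.6%). The order of the genes was not tested. Over all 9020 genes, the number of cells at 10 RPM or more ran from 2 to 49, with a median of 20. For comparison, genes used as markers of other cells were counted in the same cells. Whether neurons make some of them, such as Slc1a2, was not tested. The 7 microglial genes listed reached 10 RPM in 7 to 16 cells and 100 RPM in 2 to 11, the 6 astrocyte genes in 4 to 39 and 2 to 23, and the 4 hemoglobin genes in 26 to 49 and 11 to 42. Bcl11b was in 20 cells at 10 RPM and 12 at 100 RPM, Ldb2 in 17 and 6, Fezf2 in 13 and 9, Crym in 12 and 8, and Bcl6 in 4 and 2. Bcl11b thus exceeded the microglial genes, the oligodendrocyte lineage genes and Flt1 at both limits, but each of the 5 genes lay within or below the range of the astrocyte genes. The highest astrocyte counts at 10 RPM were of Slc1a2 (39 cells) and Aldoc (25), followed by Slc1a3 (13). By the number of cells alone, none of the 5 genes can be told from the astrocyte and hemoglobin genes. At 10 RPM this rests for Bcl11b and Ldb2 on Slc1a2, Aldoc and the hemoglobin genes.

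Bcl11b ranged from 0 to 1110 RPM with a median of 1.02 RPM over the 49 cells. It was at 0 in 16 cells and its lowest value above the limit was 16.1 RPM, while the highest below it was 7.93 RPM. The 3 highest cells were IL08 of pool 5 with 1110 RPM (233 reads), IL06 of pool 2 with 643 RPM (906 reads) and IL01 of pool 4 with 278 RPM (102 reads). These 3 cells differed in their other genes. IL06 of pool 2 also held Gad1 at 297 RPM, Gad2 at 324 RPM and Lhx6 at 365 RPM, the first 2 being enzymes of GABA synthesis and Lhx6 a factor of interneurons from the medial ganglionic eminence, and it held Neurod2, a factor of excitatory neurons, at 0. IL01 of pool 4 held the reverse, Neurod6 at 1458 RPM and the deep-layer factor Tbr1 at 507 RPM with Gad1, Gad2 and Lhx6 at 0. Among the 20 cells with Bcl11b, the median was 119 RPM and the reads behind a value ran from 15 to 2300.

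Fezf2 ranged from 0 to 1296 RPM with a median of 1.23 RPM, and was at 0 in 16 cells. Its values left a gap between 8.93 and 22.8 RPM, and the 13 cells above it had a median of 172 RPM. The highest was again IL08 of pool 5, with 1296 RPM (272 reads), followed by IL01 of pool 2 with 447 RPM (1303 reads) and IL07 of pool 4 with 243 RPM (586 reads). IL08 of pool 5 was the shallowest cell of the series, with 209850 reads, and held Sst at 739 RPM, the astrocyte transporter gene Slc1a3 at 667 RPM and the microglial gene C1qb at 362 RPM beside Slc17a7, the vesicular glutamate transporter of cortical excitatory neurons, at 243 RPM. The part of these other transcripts in its Bcl11b and Fezf2 values was not tested.

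Crym had the widest range, from 0 to 3564 RPM, with a median of 1.46 RPM. The single cell IL08 of pool 3, with 3564 RPM (7401 reads), held 61.2% of the Crym signal summed over the 49 cells, followed by IL02 of pool 2 with 921 RPM (582 reads) and IL10 of pool 1 with 263 RPM (2974 reads). The 5 highest cells held 88.9% of the summed Crym signal, 62.8% of that of Bcl11b, 73.5% of Fezf2, 75.6% of Ldb2 and 98.5% of Bcl6, against a median of 58.4% over all genes.

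Ldb2 ranged from 0 to 378 RPM with a median of 1.33 RPM, and most of the cells that had it were low. The median of the 17 cells at 10 RPM or more was 31.96 RPM, and the lowest, 11.6 RPM, rested on 3 reads. The highest were IL03 of pool 1 with 378 RPM (3173 reads), IL05 of pool 3 with 269 RPM (377 reads) and IL03 of pool 5 with 218 RPM (121 reads). All 3 were also high in Tle4, a corepressor of layer 6 corticothalamic neurons, with 791, 1006 and 168 RPM, and in Hs3st4, a heparan sulfate sulfotransferase of the same neurons, with 462, 89.97 and 456 RPM.

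Bcl6 was at 0 in 39 cells and reached 10 RPM in 4 cells from 4 pools, IL09 of pool 4 with 182 RPM, IL04 of pool 2 with 166 RPM, IL08 of pool 3 with 80.9 RPM and IL07 of pool 5 with 41.5 RPM. These values rested on 59, 106, 168 and 194 reads, and the next cell lay at 9.41 RPM with 4 reads. In all 4 cells, 2 or more of the excitatory genes Slc17a7, Neurod2 and Neurod6 passed the limit, as they did in 35 of all 49 cells.

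**Figure D1:**
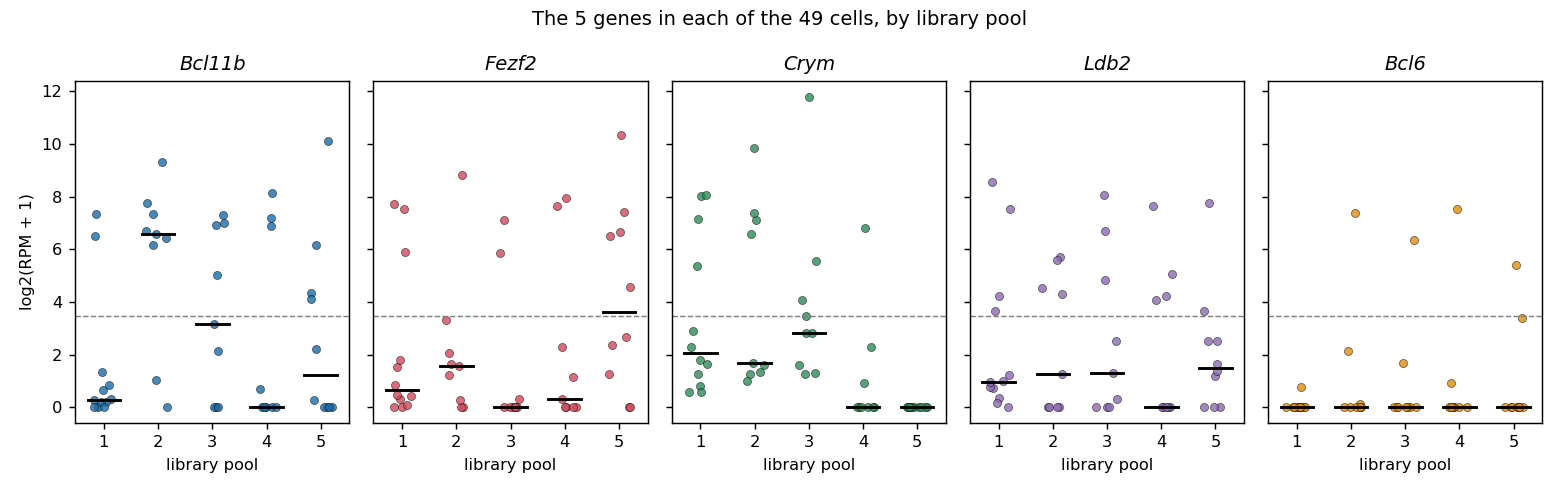
Values of Bcl11b, Fezf2, Crym, Ldb2 and Bcl6 on the log2(RPM + 1) scale (y axis) in each of the 49 cells, by library pool (x axis). Each point is 1 cell, the black bars are pool medians and the dashed line is 10 RPM. Values spread from 0 to well above the line with small gaps at it (Crym 9.91 to 15.8 RPM), Bcl11b is above the line in 7 of 9 cells of pool 2 and 2 of 12 cells of pool 1, and Crym is at 0 in all 10 cells of pool 5.

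The presence of these genes differed between library pools. Bcl11b was present in 2 of 12 cells of pool 1, 7 of 9 of pool 2, 4 of 9 of pool 3, 3 of 9 of pool 4 and 4 of 10 of pool 5. Fezf2 was present in 3, 1, 2, 2 and 5 cells of the same pools, so that pool 2, which had the most cells with Bcl11b, had the fewest with Fezf2. Ldb2 was spread more evenly, with 4, 4, 3, 4 and 2 cells. Crym was present in 4, 4, 3, 1 and 0 cells. In pool 5 not a single Crym read was found among 13708808 reads, which allows a level of up to 0.219 RPM over the pool and of 0.642 to 14.3 RPM in its single cells (3 reads of the total). In pools 1 to 3, in contrast, 30 of 30 cells had at least 1 Crym read. The study sequenced cells of different days and positions together, and the labels give neither for a cell, so pool, day and position cannot be told apart.

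Below 10 RPM, single reads of a gene were found where the same pool held a cell with much of it. Over the 20 pairs of a gene and a pool in which a cell reached 100 RPM, 72 of the 135 values below 10 RPM had at least 1 read, against 4 of 44 over the 5 other pairs, 3 of which are of Bcl6. For Fezf2, the cells below 10 RPM that had a read had at most 1.84% of the reads of the highest cell of their pool, for Ldb2 1.65%, for Bcl11b 0.870% and for Crym 0.555%, counting pools with a cell at 100 RPM or more. The figure for Bcl6 was 9.43%. Transfer of reads between cells of a pool was not tested. When a cell also had to hold at least 10% of the reads of the highest cell of its pool, Bcl11b was kept in 14 cells, Ldb2 in 13, Fezf2 in 11, Crym in 8 and Bcl6 in 4.

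At least 1 of the 5 genes was present in 34 of the 49 cells and at least 2 in 24 (48.98%, 34.4% to 63.7%). The 15 cells with none of them (30.6%, 18.3% to 45.4%) compare with 9.65 cells computed from the 5 shares as if the genes were spread independently, and the 10 cells with exactly 1 gene with 19.3. On the same basis 20.1 cells would have at least 2 genes, where 24 did, and 5.72 at least 3, where 7 did. Exactly 2 genes were found in 17 cells, 3 in 6 and 4 in 1. The cell with 4 genes was IL10 of pool 1, with Bcl11b at 89.95 RPM, Fezf2 at 58.9, Crym at 263 and Ldb2 at 183 RPM, and 0 of 49 cells had all 5. The number of cells with at least 2 genes was 20 of 37 without the cells of at least 1% hemoglobin and without the 5 shallowest cells. It was 17 when the value also had to reach 10% of the highest cell of the pool.

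Of the 32 possible combinations, 17 were seen, 7 of them in 1 cell each. After the cells with none, the most frequent was Bcl11b with Fezf2 alone, in 6 cells, followed by Bcl11b with Ldb2 in 4 cells, and by Crym with Ldb2, Bcl11b alone and Ldb2 alone in 3 cells each. Fezf2 was found without any of the other 4 genes in 0 of its 13 cells, Crym in 2 of 12 and Bcl6 in 2 of 4. The 5 genes thus did not mark 1 common set of cells, and they are described below by their pairs.

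Bcl11b and Fezf2 shared the most cells. Both were present in 9 cells, 69.2% of those with Fezf2 and 45% of those with Bcl11b, against 5.31 cells computed from their separate numbers over all cells and 4.83 computed within pools. Over the 49 cells their Pearson r was 0.30 on the log2(RPM + 1) scale (Spearman's rho 0.27), 0.37 with the pool means subtracted and 0.23 without the 2 cells farthest from the median of Bcl11b. It was above 0 in 4 of the 5 pools, from -0.15 to 0.76. The relation was weak, and 257 of the 9019 other genes had a higher r with Bcl11b than Fezf2 had. Cells share depth and library pool, so such values describe these cells and carry no p.

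Fezf2 and Ldb2 shared 6 cells against 4.51 computed from their numbers, with r = 0.29 (rho 0.32, 0.33 with the pool means subtracted), and leaving out pool 3 gave 0.18. Crym and Ldb2 also shared 6 cells, against 4.16, with r = 0.15, and Bcl11b and Crym 6 against 4.90, with r = 0.23. Bcl11b and Ldb2 shared 7 cells, the number computed from their separate counts being 6.94, and their r was 0.00. Fezf2 and Crym shared 3 cells against 3.18, with r = -0.09, which ran from -0.24 to 0.05 over the alternatives. Bcl6 shared 1 cell with each of the other 4 genes, and its r with them ran from -0.12 to 0.01.

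**Figure D2:**
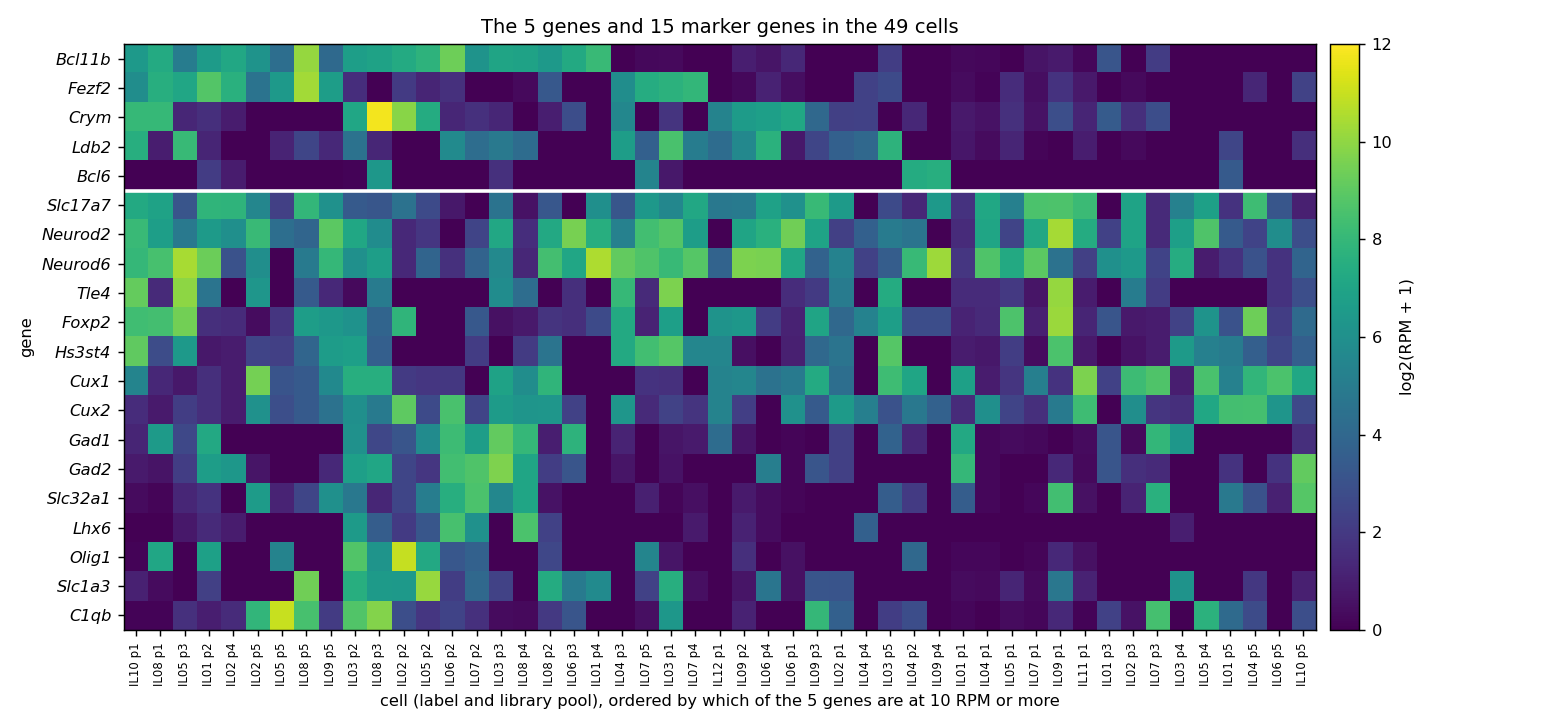
Log2(RPM + 1) (colour) of the 5 genes (above the white line) and 15 marker genes (rows) in the 49 cells (columns, named by cell and pool), ordered by which of the 5 genes are at 10 RPM or more. The 20 cells with Bcl11b stand on the left with the 9 that also have Fezf2 first, and the 15 cells with none of the 5 genes on the right.

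Joint counts of Fezf2 with excitatory genes varied by gene. All 13 cells with Fezf2 had Neurod2, a transcription factor of excitatory neurons, at 10 RPM or more, against 34 of all 49 cells, and 12 of the 13 had at least 2 of Slc17a7, Neurod2 and Neurod6, where 9.29 cells were computed over all cells and 8.92 within pools. Camk2a and Emx1, also of excitatory neurons, were in 8 and 3 of the 13, where 8.49 and 2.92 were computed. Of the 6 excitatory genes, 0 had an r of at least 0.3 with Fezf2, near the 2.98% of all genes. The median r of the list was 0.19, against 0.03 over all genes. With the pool means subtracted, 2 of the 6 reached 0.3 (Neurod6 with 0.35 and Slc17a7 with 0.32), where 5.16% of all genes did. Of the 14 genes listed for inhibitory neurons, 6 (Dlx1, Dlx2, Dlx5, Dlx6os1, Lhx6 and Erbb4) reached 10 RPM in 0 of the 13 cells with Fezf2, where their separate numbers gave 1.33 to 2.92 cells each. A count of 0 in 13 cells allows a share of up to 23.1%. These 6 genes were in only 5 to 11 of all 49 cells, and the share of all genes with such a 0 was not counted. Gad1, Gad2 and Slc32a1, the vesicular GABA transporter, were each found in 2 of the 13 cells. Sst, a neuropeptide of interneurons, was in 5, against 3.71 computed.

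Bcl11b was found in many of the cells with some of the inhibitory genes. It shared 9 of the 14 cells with Gad1, 8 of the 11 with Gad2, 5 of the 6 with Lhx6 and 4 of the 5 with Dlx5, where 5.71, 4.49, 2.45 and 2.04 were computed over all cells and 6.79, 5.57, 3.44 and 2.50 within pools. Its r was 0.44 with Gad1, 0.40 with Gad2, 0.47 with Lhx6 and 0.31 with Dlx5, and 0.37, 0.299, 0.35 and 0.28 with the pool means subtracted. These 4 of the 14 inhibitory genes had an r of at least 0.3 with Bcl11b, as had 2.84% of all other genes. With the pool means subtracted, 3 of the 14 had (Gad1, Lhx6 and Sst, the last with 0.36), as had 2.26% of all other genes. The median r of the list was 0.10 against 0.02 over all genes. Apart from Gad1, Gad2, Lhx6 and Dlx5, the r over the list ran from -0.17 (Vip, 8 of 20 cells shared, 8.16 computed) to 0.27 (Slc32a1, 8 of 14 shared, 5.71 computed). Ldb2 likewise shared 5 of the 6 cells with Lhx6, where 2.08 were computed over all cells and 2.56 within pools. Of the cells with at least 2 of Gad1, Gad2 and Slc32a1, it shared 6 of 11, against 3.82 and 4.07. With Ldb2, 0 of the 14 reached 0.3, against 7.11% of all genes. With Fezf2 0 of the 14 reached 0.3, against 2.98% of all genes, and the list's median r was -0.13. Whether the r of Bcl11b and of Fezf2 with this list differ was not tested.

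Of the 20 cells with Bcl11b, 14 had at least 2 of the 3 excitatory genes, where 14.3 were computed, 7 had at least 2 of Gad1, Gad2 and Slc32a1, 3 had both and 2 neither. Of the 9 cells with both Bcl11b and Fezf2, 8 had at least 2 of the 3 excitatory genes and 1 had at least 2 of Gad1, Gad2 and Slc32a1. Of the 11 with Bcl11b and no Fezf2, 6 had at least 2 of the excitatory genes and 6 at least 2 of the inhibitory genes, with 2 of the cells in both counts. The 11 cells came from pool 2 (6 cells), pool 3 (3) and pool 4 (2). Pool 2 held 5 of the 11 cells of the series with at least 2 of Gad1, Gad2 and Slc32a1, and all 5 had Bcl11b, so that the joint count of 7 over all pools compares with 4.49 computed over all cells and with 6.08 computed within pools.

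**Figure D3:**
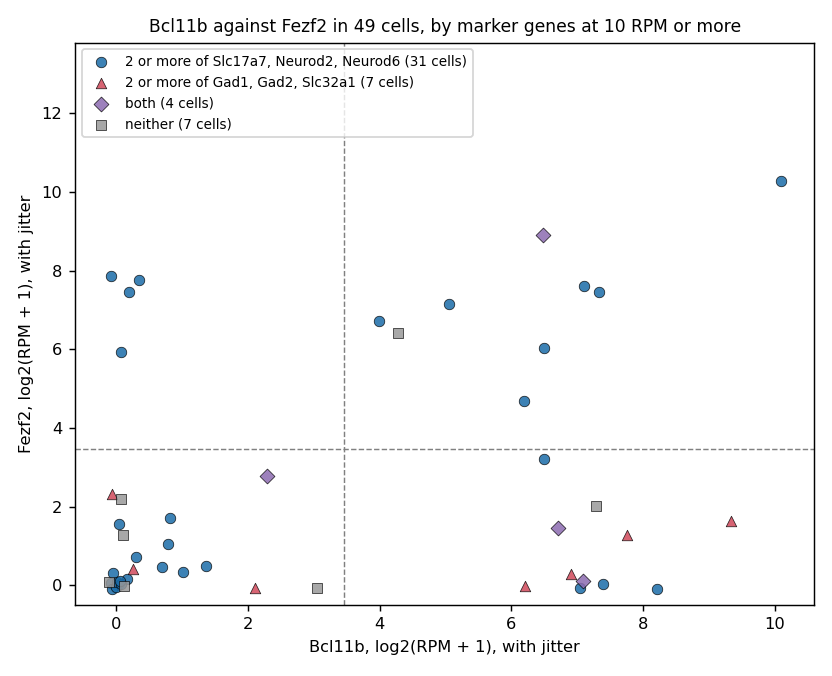
Bcl11b (x axis) against Fezf2 (y axis), both log2(RPM + 1) with a small jitter, in the 49 cells, with dashed lines at 10 RPM. Colours and shapes show which cells had at least 2 of 3 excitatory or inhibitory genes at 10 RPM or more. The 4 cells with Fezf2 and no Bcl11b all had at least 2 of the excitatory genes, as had 35 of all 49 cells. Of the 11 cells with at least 2 of the inhibitory genes, 6 lie above the line for Bcl11b and below that for Fezf2.

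Glial genes differed in how they went with Bcl11b. It shared 8 of the 10 cells with the oligodendrocyte lineage gene Olig1 (4.08 computed, r = 0.44, 0.29 with the pool means subtracted) and 9 of the 13 cells with Slc1a3 (5.31 computed, r = 0.44). The astrocyte genes Aqp4 and Aldoc shared 1 and 9 cells with it (2.45 and 10.2 computed, r = -0.25 and -0.20), and the myelin gene Mbp 7 (7.35 computed, r = -0.07). Of the 6 astrocyte genes listed, 2 had an r of at least 0.3 with Bcl11b, of the 5 oligodendrocyte lineage genes 1 and of the 7 microglial genes 0, against 2.84% of all genes. With the pool means subtracted these were 1, 0 and 0. The summed level of the astrocyte genes ran from 0 to 3644 RPM over the cells, that of the oligodendrocyte lineage genes from 0 to 3905 RPM and that of the microglial genes from 0 to 7549 RPM. Their part in the values of Bcl11b was not tested.

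Of the 10 genes of superficial and intracortical neurons, 2 had an r of -0.3 or less with Fezf2, Cux1 and Mdga1, as had 0.732% of all genes, and Cux2 lay just outside. Cux1 and Cux2, homeobox factors of upper-layer neurons, were each in 3 of the 13 cells with Fezf2, where 6.90 and 6.37 were computed, and Mdga1, a cell adhesion gene of upper layers, in 0, where 2.92 were. The r with Fezf2 was -0.32 for Cux1, -0.29 for Cux2 and -0.34 for Mdga1, and -0.44, -0.36 and -0.42 with the pool means subtracted. The other 7 genes of this list did not follow, with r from -0.09 to 0.26, among them Rorb of layer 4, which was in 9 of the 13 cells. Crym and Ldb2 were found with Cux1 or Cux2 in 10 of 12 and 12 of 17 cells, against 33 of all 49, and Fezf2 in 4 of 13.

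Ldb2 went with genes of layer 6 corticothalamic neurons. Of the 10 genes of that list, 5 had an r of at least 0.3 with Ldb2, as had 7.11% of all other genes, and the median r of the list was 0.30 against 0.08 over all genes. They were Tle4, Hs3st4, the nuclear factor gene Nfia and Ppp1r1b, the phosphatase inhibitor DARPP-32, with r = 0.45 each, and the synaptotagmin gene Syt6 with 0.33. With the pool means subtracted these values were 0.50, 0.50, 0.48, 0.49 and 0.35, in the order named. Without the 2 cells farthest from the median of Ldb2, Tle4 fell to 0.28 and Syt6 to 0.15 (its rho was 0.13), and 3 of the 5 remained at 0.3 or more. Ldb2 was present in 8 of the 13 cells with Tle4 and in 11 of the 16 with Ppp1r1b, where 4.51 and 5.55 were computed. Tbr1, which represses the subcerebral programme in layer 6, had an r of -0.03 with Ldb2 and shared 6 cells against 5.55.

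Fezf2 had 2 of the 10 layer 6 genes at an r of at least 0.3, Hs3st4 with 0.40 and Tle4 with 0.32, while Bcl11b, Crym and Bcl6 had 0. An r of at least 0.3 was found for 4.75% of all genes with Crym and for 1.9% with Bcl6. The 6 cells with both Fezf2 and Ldb2 had at least 2 of Slc17a7, Neurod2 and Neurod6 in 6 of 6 cases, at least 1 of Gad1, Gad2 and Slc32a1 in 0, and at least 2 of Tbr1, Tle4 and Foxp2 in 4, against 35, 22 and 12 of all 49 cells. The Ldb2 values also tended to be lower where hemoglobin was higher. Their r with the log10 hemoglobin share of a cell was -0.34, the largest in size of the 5 genes, and the part of blood in the Ldb2 values was not tested.

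Of the 16 other layer 5 genes listed, 0 had an r of at least 0.3 with Bcl11b, Fezf2 or Bcl6, where 2.84%, 2.98% and 1.9% of all genes had, so that 0 of 16 is near these shares. With Crym 3 of the 16 had, against 4.75%, and with Ldb2 2, against 7.11%. Pcp4, a calmodulin-binding protein of layer 5 neurons, was at 10 RPM or more in 41 of 49 cells and in 12 of the 13 with Fezf2. For Fezf2 the highest was Etv1, a factor of layer 5 neurons, with 0.29 (5 of 10 cells shared, 2.65 computed). With the pool means subtracted, 3 of the 16 reached 0.3 with Fezf2, where 5.16% of all genes did. For Crym they were S100a10, the annexin partner p11, with 0.43 (9 of 16 cells shared, 3.92 computed), Sox5 with 0.39 and the netrin relative Ntng1 with 0.39, and Sox5 fell to 0.13 with the pool means subtracted. For Ldb2 they were the homeobox gene Otx1 with 0.49 (5 of 6 cells shared, 2.08 computed) and Sox5, a factor that sets the timing of deep-layer fates, with 0.45 (13 of 22 cells shared, 7.63 computed).

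**Figure D4:**
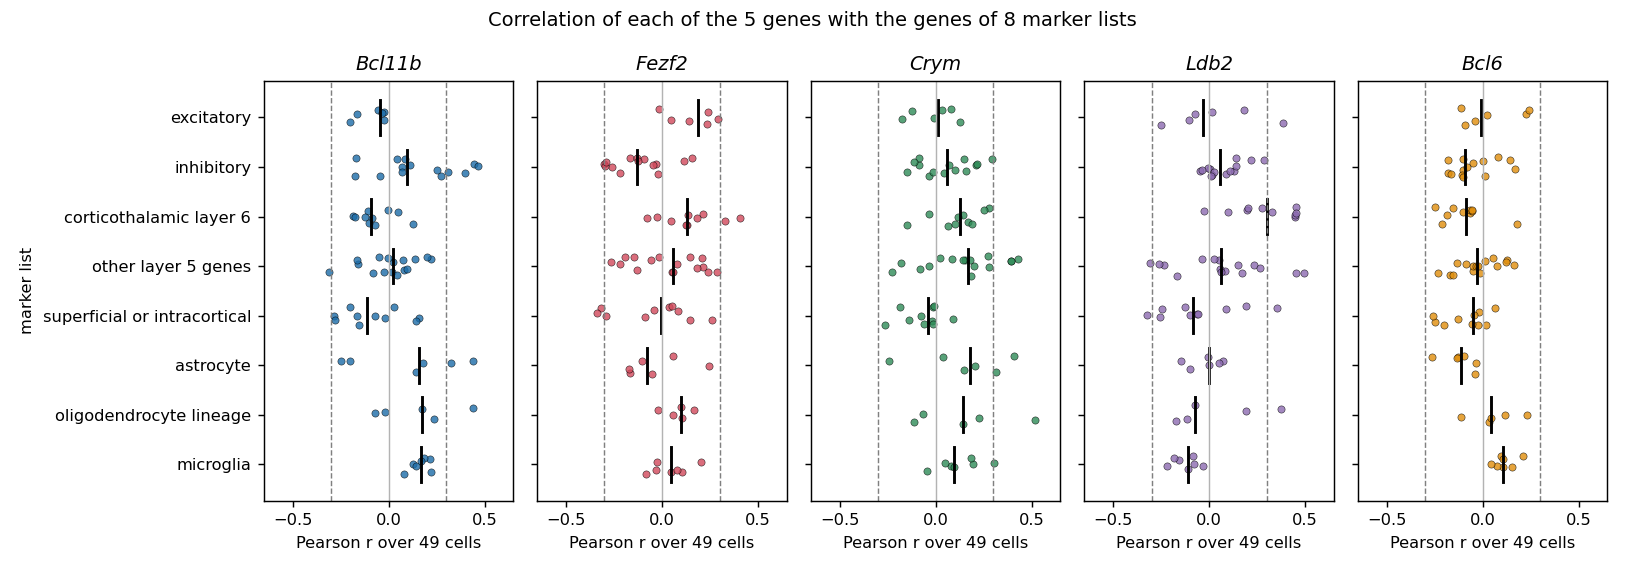
Pearson r over the 49 cells (x axis) between each of the 5 genes (panels) and the genes of 8 marker lists (y axis), on the log2(RPM + 1) scale. Each point is 1 gene, the black bars are list medians and the dashed lines are at -0.3 and 0.3. The inhibitory genes have a median of 0.10 with Bcl11b, where the highest is 0.47, and of -0.13 with Fezf2. The layer 6 genes have a median of 0.30 with Ldb2.

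The genes whose levels were most like those of the 5 were sought among those at 10 RPM or more in at least 10 cells, 7420 in all. The 5 most like Bcl11b were Mphosph6 (r = 0.58), Prepl (0.55), Mrpl4 (0.53), Eif3f (0.49) and Ncan (0.46), over 49 cells. For Fezf2 they were Tmed8 (0.59), Lsm2 (0.51), Ncam2 (0.51), Chgb (0.48) and Sulf2 (0.47). Lsm2 and Chgb were present in 13 of the 13 cells with Fezf2 and in 29 and 44 of all 49. Both were picked by r in these same cells, so the overlap adds nothing to the r. For Crym they were Ptpn12 (0.66), Gstm1 (0.61), Brms1 (0.57), Olig1 (0.52) and Sowahc (0.51), for Ldb2 Lix1 (0.56), Mipep (0.55), Tshz3 (0.55), Pdxk (0.54) and Wdr75 (0.54), and for Bcl6 Frmd3 (0.52), Chrm1 (0.51), Prmt6 (0.51), Trmt11 (0.50) and Rpl7l1 (0.45). Not one of the 5 genes was among the 5 most like another. Bcl6, present in 4 cells, fell short of the 10 cells asked and could not appear for the others. The values for Bcl6 rest on its 4 cells. These held all 5 of the genes named for Bcl6, which is what a choice by r favours, and the genes were in 15 (Chrm1) to 26 (Rpl7l1) of all 49 cells. Without the 2 cells farthest from the median of Bcl6, the r ran from 0.27 (Rpl7l1) to 0.42 (Chrm1). Without the 2 cells farthest from the median of Crym, the r of Olig1 fell to 0.34. By Spearman's rho, 3 of the 5 genes named for Bcl11b and for Fezf2 remained, 2 for Crym and for Bcl6 and 1 for Ldb2. Among all genes listed, 4 remained for Fezf2 and for Bcl6, 3 for Ldb2 and 2 for Bcl11b and for Crym.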

How the data were processed

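RNA of 49 cells patched as single neurons was measured. The authors used the SMART-Seq v4 3′ DE kit, sequenced single reads of 100 bases in 5 library pools, aligned them with STAR to mm10, counted with HTSeq and deposited RPM values for 9020 genes per cell. Versions and the annotation are not given in the sources used here. Each cell's values were whole multiples of what 1 read is worth (100% within 0.01 of a whole number), which gave the reads and the totals. A simulated table was used to test this step. Levels are RPM, and correlations use log2(RPM + 1). The genes named are the 5, genes of the marker lists (up to 6 per list with the highest summed RPM, and those on which a joint count turns) and the 5 most alike per gene. Cells are named where among the 3 highest of a gene, and those with Bcl6 or with the most genes after their values were seen. The members and lists were chosen with earlier results of these data known. Alternatives were other limits, scalings (edgeR 4.0.16 TMM), pseudocounts, thinning and left-out pools. Python 3.11.15, scipy 1.17.1 and R 4.3.3 were used.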

Additional observations from a re-analysis of the deposited data

How the results depend on the processing

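The share of cells with a gene depends on the limit. At 1 read it was 67.3% for Bcl11b, Fezf2, Crym and Ldb2 alike and 20.4% for Bcl6. At 1 RPM it was 51.0% for Fezf2, 57.1% for Crym and 53.1% for Ldb2, and at 100 RPM 24.5% for Bcl11b and 12.2% for Ldb2. With the 44 deeper cells thinned to 358412 reads, a read remained in 45.6% for Fezf2 and 48.1% for Crym. Cells with at least 2 of the 5 genes numbered 43 at 1 read, 38 at 1 RPM and 11 at 100 RPM, and cells with none 3, 6 and 24. Under both other scalings, the 10% limit of the pool, each left-out pool and the left-out cells of high hemoglobin or low depth (the last chosen after seeing the data), each share remained within its interval. Of 110 alternative values of r between the 5 genes, 11 moved by 0.1 or more, Bcl11b with Fezf2 ran from 0.20 to 0.39, and Fezf2 with Ldb2 from 0.18 to 0.39. With 4 to 20 cells a gene and as few as 3 reads in a value, intervals are wide. No paired analysis was possible because the cells form a single condition.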

Other observations

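BCL11 proteins join the SWI/SNF (BAF) chromatin remodelling complex, of which 13 genes were listed. Bcl11a, the close relative of Bcl11b, was at 10 RPM or more in 47 of 49 cells, with a median of 204 RPM, and so was found in nearly all cells where Bcl11b was found in 20. Its r was 0.32 with Fezf2 (0.43 with the pool means subtracted) and 0.30 with Ldb2. Of the 13 genes, 0 had an r of at least 0.3 with Bcl11b, 1 with Fezf2, 2 with Crym and 2 with Ldb2. The shares of all genes were 2.84%, 2.98%, 4.75% and 7.11%, and counts this small cannot tell the list from them. Dpf3, which encodes a subunit of the neuronal form of the complex, had r = 0.40 with Ldb2 (7 of 10 cells shared) and 0.37 with Crym (6 of 10 shared).

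LDB proteins bind LIM-domain proteins. Of the 7 genes listed for partners of Ldb2 and Bcl6, 0 had an r of at least 0.3 with Ldb2, where 7.11% of all genes had, and Lhx2, a LIM homeobox gene, had -0.32. Ldb1, the relative of Ldb2, was at 10 RPM or more in 18 cells and shared 10 with Ldb2, where 6.24 were computed from their numbers (r = 0.17). With Crym 1 of the 7 had, against 4.75% of all genes. This was the LIM-only gene Lmo1, with r = 0.55, 0.65 with the pool means subtracted and a Spearman's rho of 0.24, and 7 of its 9 cells had Crym, where 2.20 were computed. Bcor and Ncor1, corepressors of Bcl6, had r = -0.06 and -0.07 with Bcl6.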
